A study of Mus musculus with 24 samples.

Results

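The 10 genes described here make up the imprinted domain around Kcnq1ot1 on distal chromosome 7 of the mouse. They are the long noncoding RNA Kcnq1ot1 and the protein-coding genes Kcnq1, Cdkn1c, Phlda2, Slc22a18, Nap1l4, Ascl2, Tspan32, Cd81 and Tssc4. The list was given by symbol and not chosen by a value in these tables, and all 10 symbols were found among the 55291 gene symbols of the tables. All 10 passed the filter on low values, a mean of at least 10 normalized counts over 22 libraries. Kcnq1 passed it narrowly with a mean of 12.9, and the next lowest, Ascl2, had a mean of 112.

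The cells were E14Tg2a mouse embryonic stem cells of the 129/Ola strain. Their own CTCF is fused to a degron and is destroyed when the auxin indole-3-acetic acid (IAA) is added. CTCF binds insulator sites through its zinc fingers and halts cohesin as it extrudes loops. Each of 10 lines also carried a doxycycline-inducible Ctcf transgene, and all were grown without feeders in 15% serum with LIF, 3 µM CHIR99021 and 1 µM PD0325901. The line with the wild-type (WT) transgene gave 3 groups: untreated (WT untreated), 500 µM IAA alone (WT IAA), and 500 µM IAA with 1 µg/ml doxycycline (WT ID), each treatment for 2 days. The other 9 groups received IAA and doxycycline and expressed a transgene with 1 substitution: R339Q, R342C, S354F, K365T, R377C, R377H, Q418R, R448Q or H455R. Each substitution was represented by 1 line, so a substitution and its line cannot be told apart. There were 2 libraries of ribosome-depleted total RNA per group, 24 in all. Separate cultures are not mentioned for the replicates, and the spread behind each p-value may therefore be technical.

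The libraries held between 27.8 M (the smallest) and 77.1 M recovered reads, in units of 1e6. The levels below are TPM, reads per gene length scaled to a constant sum per library, so genes can be compared with each other. Differences are log2 fold changes of normalized counts (reads divided by a size factor per library) with their standard errors from limma, and a gene was called where the p-value adjusted over the 18713 genes tested was under 0.05. Reads from the 2 parental alleles were not separated, so every value is a sum over both. In bulk RNA, fewer expressing cells and less RNA per cell cannot be told apart. Ctcf RNA says nothing of protein loss, and whether it includes transgene reads is unknown. It lay between 125 and 185 TPM in every library except those of R448Q (278 and 284) and H455R (261 and 270).

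In an imprinted domain the copies inherited from the mother and the father are used differently. Kcnq1ot1 is transcribed from the paternal chromosome, from a promoter inside Kcnq1 and antisense to it. That promoter lies in an imprinting control region whose DNA is methylated on the maternal chromosome, where the RNA is off. On the paternal chromosome Kcnq1ot1 RNA spreads over the domain in cis with Polycomb complexes and histone methyltransferases, and the flanking protein-coding genes are kept low. Cdkn1c, Phlda2, Slc22a18 and Kcnq1 are therefore expressed mainly from the mother's copy in many tissues, while Ascl2, Tspan32, Cd81 and Tssc4 are imprinted mainly in the placenta. Loss of imprinting of the human counterpart region is known for Beckwith-Wiedemann syndrome.

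In the GENCODE M21 annotation of mm10 the genes ran along chromosome 7 in the order Ascl2, Tspan32, Cd81, Tssc4, Kcnq1, Cdkn1c, Slc22a18, Phlda2 and Nap1l4, with Kcnq1ot1 inside Kcnq1. Ascl2 at one end spanned chr7:142966829-142969264 on the minus strand, and Nap1l4 at the other end chr7:143513579-143549106, also on the minus strand. Kcnq1 spanned chr7:143106362-143427042 on the plus strand. Kcnq1ot1 was annotated as a single unspliced exon of 93092 bases, chr7:143203458-143296549, on the minus strand. It shared 121 exon bases with Kcnq1, and Tssc4 shared 220 with Trpm5. Because the sources used here do not give the strand setting of the counting, values of such antisense pairs are uncertain. They include Tspan32 with Tspan32os (271 shared exon bases), Cd81 with R74862 (104) and Cdkn1c with Gm44732 (625).

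Promoter sequences (RefSeq, GRCm38.p6, from 250 bases before to 50 after the start, 5′ to 3′ on the gene's strand) were matched for 7 of the 10 genes. Those of Kcnq1ot1, the member that rose most in R448Q, and of Tspan32, Slc22a18 and Phlda2, the members that fell most there, are printed with CCAAT or its reverse complement ATTGG in capitals. CCAAT is the box bound by the factor NF-Y, and repeats of it are known in the Kcnq1ot1 promoter. The windows were chr7:143296498-143296797 (minus strand) for Kcnq1ot1, chr7:143004796-143005095 (plus) for Tspan32, chr7:143473539-143473838 (plus) for Slc22a18 and chr7:143502475-143502774 (minus) for Phlda2.
Kcnq1ot1: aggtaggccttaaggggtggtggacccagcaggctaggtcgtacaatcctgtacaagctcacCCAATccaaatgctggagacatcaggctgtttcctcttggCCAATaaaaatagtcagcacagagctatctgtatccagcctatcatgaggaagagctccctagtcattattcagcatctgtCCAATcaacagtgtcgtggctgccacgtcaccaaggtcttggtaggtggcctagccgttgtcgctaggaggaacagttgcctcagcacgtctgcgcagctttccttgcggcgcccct
Tspan32: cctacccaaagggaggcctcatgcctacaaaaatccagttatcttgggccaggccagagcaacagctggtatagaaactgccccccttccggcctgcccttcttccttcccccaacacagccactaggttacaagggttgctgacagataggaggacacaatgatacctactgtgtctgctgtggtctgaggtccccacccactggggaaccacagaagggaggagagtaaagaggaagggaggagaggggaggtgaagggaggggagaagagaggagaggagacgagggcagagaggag
Slc22a18: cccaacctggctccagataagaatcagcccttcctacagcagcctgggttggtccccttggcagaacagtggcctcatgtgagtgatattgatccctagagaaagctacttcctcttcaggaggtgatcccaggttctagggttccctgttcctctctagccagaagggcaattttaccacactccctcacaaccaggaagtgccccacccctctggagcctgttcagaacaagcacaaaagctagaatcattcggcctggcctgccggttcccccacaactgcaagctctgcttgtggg
Phlda2: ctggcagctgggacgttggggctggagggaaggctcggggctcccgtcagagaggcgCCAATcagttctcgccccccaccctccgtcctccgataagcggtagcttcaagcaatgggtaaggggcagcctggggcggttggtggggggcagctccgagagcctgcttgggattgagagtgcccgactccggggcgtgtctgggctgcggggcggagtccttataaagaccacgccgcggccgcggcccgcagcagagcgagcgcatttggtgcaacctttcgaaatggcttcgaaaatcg
The Kcnq1ot1 window held 3 CCAAT boxes, all on the gene's strand, at bases 63, 103 and 184. Of 32841 promoters of the same length, 37.4% held CCAAT on either strand and 3.37% held 3 or more. Ascl2 also held 3, Phlda2 and Tssc4 held 1 each, and Tspan32, Slc22a18 and Cd81 held none. A 12-letter core of the CTCF motif, searched on both strands, was in 0 of these 7 windows and in 8.61% of all promoters, so no CCAAT match overlapped a match of it. The 3 genes that fell most in R448Q differed in CpG content, with 26 CpG in Phlda2 and 2 each in Tspan32 and Slc22a18, against a median of 7 over all promoters. No methylation or binding was measured in these samples, so the matches describe letters only.

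Kcnq1ot1 itself was a moderately expressed RNA with its highest level in R448Q. It was at 4.7 and 4.18 TPM in the 2 WT ID libraries and at 11.6 and 10.3 TPM in R448Q. Both R448Q libraries lay above all libraries of the other groups, the nearest being Q418R replicate 1 at 10.1 TPM. The log2 fold change in R448Q was 1.47 ± 0.26 (limma adjusted p = 1.1e-04), which is 2.77-fold. Q418R was called too (0.85 ± 0.26, limma adjusted p = 0.0211), but its libraries were 10.1 and 5.6 TPM, and without Q418R replicate 1 the difference was 0.47 with an adjusted p of 0.312. That call also ended without WT ID replicate 1 or 2 (differences of 0.88 and 0.82). It was lost as well on TPM (0.75, limma adjusted p = 0.105) and with no low-value filter (limma adjusted p = 0.0574). In R377H both libraries were at 5.73 TPM, above both WT ID libraries, and the difference of 0.46 ± 0.26 was not called (limma adjusted p = 0.216). Fitted on only these 2 groups, with a standard error of 0.06 in place of 0.26, it was called (adjusted p = 6.19e-05). The same fit called R377H higher than WT IAA (0.33, adjusted p = 0.00157) and H455R higher than WT ID (0.48, 3.79e-04). Kcnq1ot1 was lowest in K365T replicate 2 at 2.11 TPM, while K365T replicate 1 was at 4.72. The order of the group means ran from K365T, WT untreated and WT ID at the low end to H455R, Q418R and R448Q at the high end, and in 8 of 11 neighbouring pairs of that order the libraries overlapped.

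**Figure D1:**
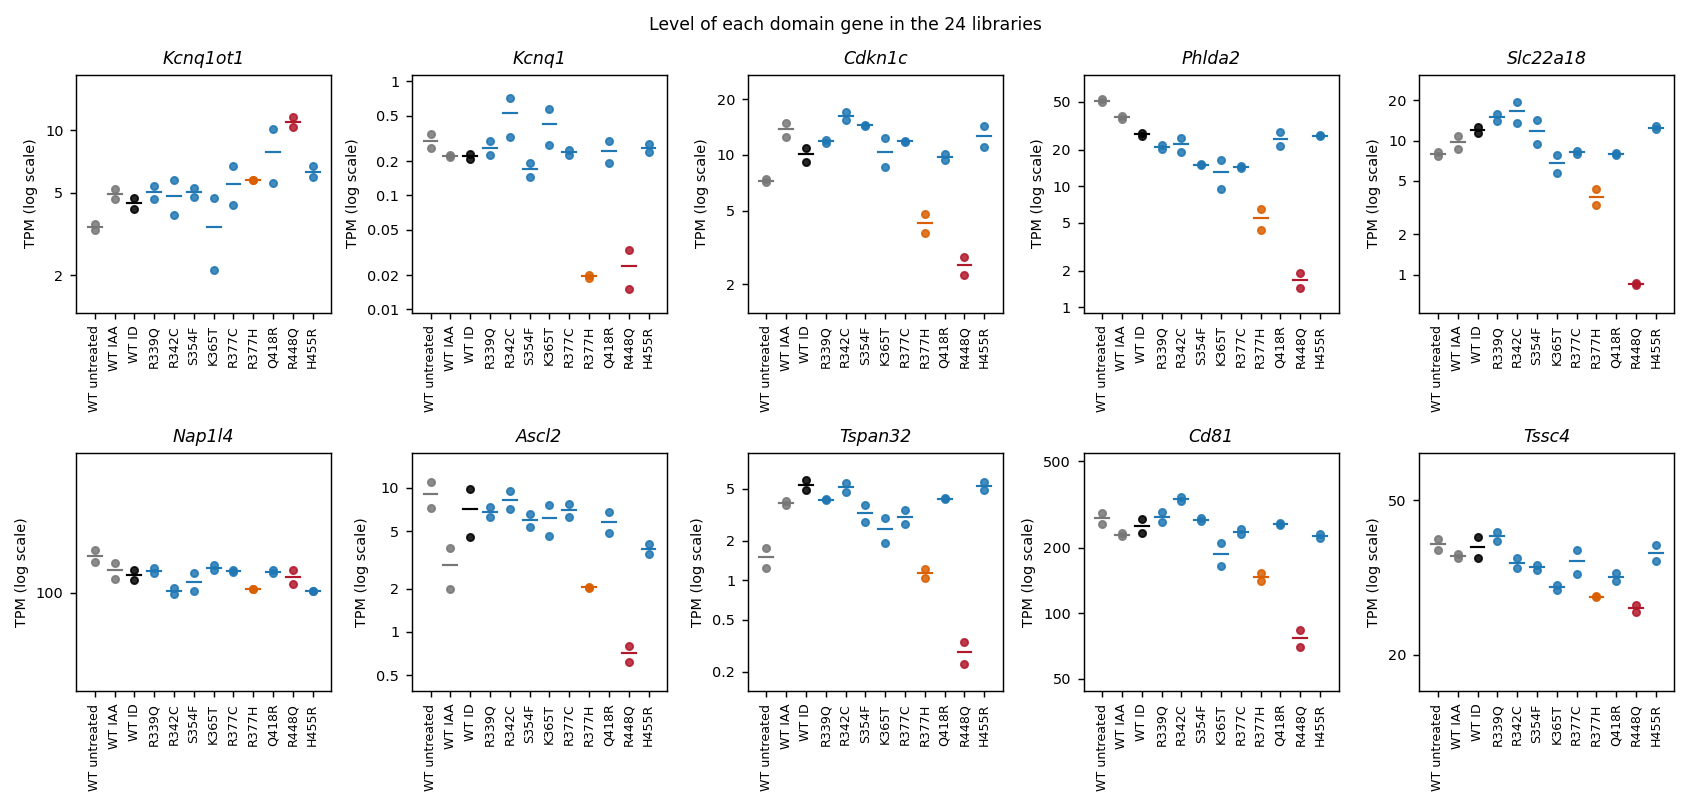
Level of each of the 10 genes in TPM (vertical axes, log scale, with a range of its own for each gene) in the 2 libraries of each of the 12 groups (horizontal axes). Points are libraries and bars are means of 2; R448Q (red) and R377H (orange) hold the lowest Cdkn1c, Phlda2, Slc22a18 and Tspan32 values, while Kcnq1ot1 is highest in R448Q and Nap1l4 stays between 99.3 and 123 TPM.

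In R448Q 8 of the 10 genes fell and 2 were called higher, where 45.8% of all genes were called (23.1% lower, 22.8% higher). Tspan32, a tetraspanin of blood cells, was at 5.9 and 4.88 TPM in WT ID and at 0.335 and 0.228 TPM in R448Q. Phlda2, a pleckstrin homology protein that restrains placental growth, was at 26.2 and 27.5 TPM in WT ID and at 1.44 and 1.93 TPM in R448Q. Slc22a18, a transporter of organic cations, was at 11.3 and 12.7 TPM and at 0.834 and 0.872 TPM. In each of these 3 genes both R448Q libraries were the lowest of all 24, far below the WT ID pair. The log2 fold changes were -4.06 ± 0.21 for Tspan32 (16.7-fold lower, limma adjusted p = 6.8e-11), -3.79 ± 0.22 for Phlda2 (13.9-fold) and -3.59 ± 0.22 for Slc22a18 (12-fold). Counted from the largest fall among the 18713 genes tested, they ranked 11, 19 and 28.

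The remaining falls in R448Q were graded. Ascl2, a basic helix-loop-helix factor needed for the trophoblast lineage, was at 9.79 and 4.57 TPM in WT ID and at 0.623 and 0.799 TPM in R448Q (log2 fold change -3.0 ± 0.34). Cdkn1c, which encodes the cell cycle inhibitor p57 (Kip2), was at 10.9 and 9.15 TPM and at 2.25 and 2.82 TPM (-1.81 ± 0.18). Cd81, a broadly expressed tetraspanin and the most abundant of the 10, was at 270 and 234 TPM and at 84.2 and 70.4 TPM (-1.54 ± 0.11). None of these pairs overlapped, although the Ascl2 libraries of WT ID themselves differed by more than those of any other member there. Tssc4, a component of spliceosome assembly, changed little: 40.2 and 35.5 TPM against 25.8 and 26.9 TPM (-0.35 ± 0.09, limma adjusted p = 0.00244). After the median of each chromosome was set equal in every library (a setting added once the data had been seen), the Tssc4 difference was -0.18 and no longer called (adjusted p = 0.105). Nap1l4, a histone chaperone at the end of the domain, was at 112 and 106 TPM in WT ID and 112 and 104 TPM in R448Q, so its libraries overlapped on that scale. Its call of 0.15 ± 0.06 on normalized counts (limma adjusted p = 0.0491) turned to -0.01 on TPM and was lost when WT ID replicate 1, WT ID replicate 2 or R448Q replicate 1 was left out (adjusted p of 0.196, 0.0993 and 0.318).

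Kcnq1, the potassium channel gene that hosts Kcnq1ot1, was close to the limit of detection throughout. It was at 0.209 and 0.231 TPM in WT ID, 0.033 and 0.015 TPM in R448Q, and 0.02 and 0.019 TPM in R377H. These are 28 reads in the 2 WT ID libraries together, 3 in R448Q and 2 in R377H. Scaled for library size, the ratio to WT ID was 0.122 in R448Q (95% exact interval 0.0238 to 0.395, counting error only) and 0.0955 in R377H (0.011 to 0.379). The fitted log2 fold changes of -2.43 ± 0.44 and -2.6 ± 0.44 were called but depend on the added 1 count. At the other end, Kcnq1 was highest in R342C replicate 1 (0.716 TPM) and K365T replicate 2 (0.568 TPM), and limma called neither group. edgeR called R342C (1.23, adjusted p = 0.0279), and limma did so without R342C replicate 2 (1.47, 0.0486) and called K365T without replicate 1 (1.39, 0.0475).

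R448Q had the largest share of all genes called among the 10 groups compared with WT ID. Of its calls 49.7% were higher on normalized counts and 31.2% on TPM, a scale that moved the median of all genes by -0.17. The median log2 fold change was -2.12 over the 10 genes and -0.01 over all genes. The highest Ctcf RNA was in this group, but H455R, with the next highest, had 0 of 10 members called, and whether the Ctcf level matters was not tested.

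In R377H 8 of the 10 genes fell as well, by smaller amounts, and Kcnq1ot1 and Nap1l4 were not called. Of all genes 25.1% were called, 10.7% lower and 14.4% higher, and 57.4% of the calls were higher on normalized counts against 40.4% on TPM. Phlda2 was at 4.39 and 6.53 TPM against 26.2 and 27.5 in WT ID. Tspan32 was at 1.22 and 1.04 TPM against 5.9 and 4.88. Slc22a18 was at 4.33 and 3.32 TPM against 11.3 and 12.7. The R377H values lay below both WT ID libraries in all 3 genes and above both R448Q libraries. The log2 fold changes were -2.22 ± 0.22 for Phlda2 (limma adjusted p = 4.93e-07), -2.15 ± 0.21 for Tspan32 and -1.56 ± 0.22 for Slc22a18.

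Cdkn1c in R377H was at 3.81 and 4.79 TPM, below both WT ID libraries (-1.13 ± 0.18). Cd81 was at 141 and 153 TPM (-0.69 ± 0.11), again below the WT ID pair. Ascl2 was at 2.01 and 2.07 TPM (-1.6 ± 0.34). That call rested on WT ID replicate 1, the library with the higher Ascl2, since without it the difference was -1.11 with an adjusted p of 0.0533. Tssc4 was at 28.1 and 28.3 TPM (-0.33 ± 0.09), and its call also ended without WT ID replicate 1 (-0.29, adjusted p = 0.0771). Nap1l4 was at 102 TPM in both libraries, with a difference of -0.01 ± 0.06. The median over the 10 genes was -1.35, and over all genes -0.01.

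**Figure D2:**
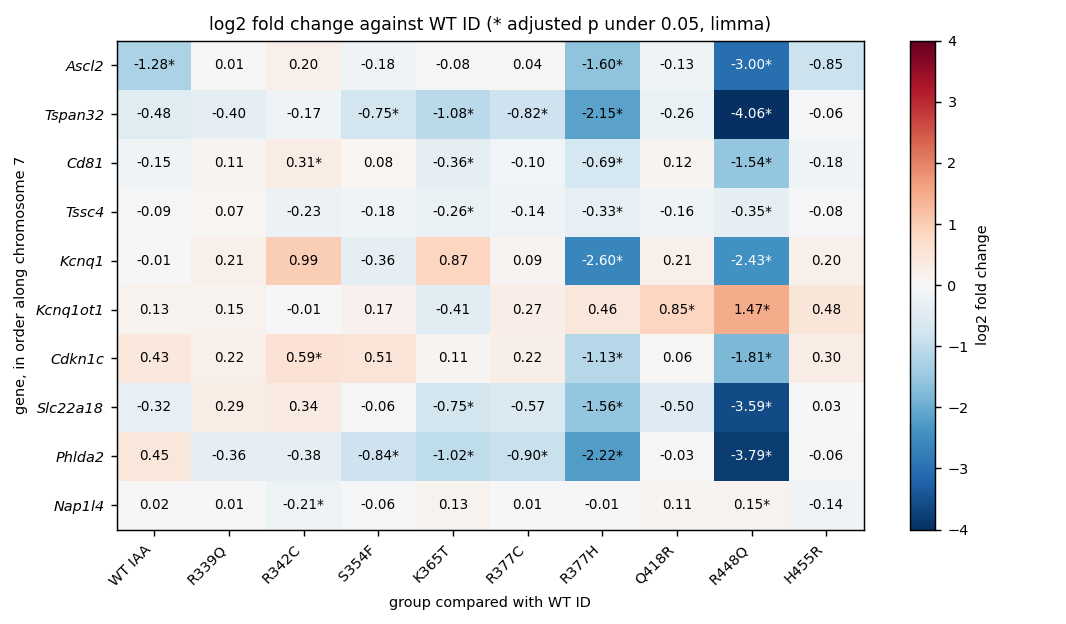
log2 fold change of each gene (rows, in order along chromosome 7) against WT ID in the other 10 groups fitted together (columns), with an asterisk where the limma adjusted p was under 0.05. The R448Q and R377H columns hold 8 falls each, K365T holds 5, and Kcnq1ot1 is called higher in R448Q and Q418R.

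R448Q and R377H were also set against each other and against WT IAA, 3 comparisons chosen after seeing the data; they share libraries with those above. Between R448Q and R377H 8 of the 10 genes were called, 2 higher and 6 lower, against 43.7% of all genes (20.3% higher, 23.4% lower). Kcnq1ot1 was higher in R448Q (1.01 ± 0.26, limma adjusted p = 0.00364). Slc22a18 (-2.03 ± 0.22), Tspan32 (-1.91 ± 0.21), Phlda2 (-1.57 ± 0.22), Ascl2 (-1.4 ± 0.34), Cd81 (-0.85 ± 0.11) and Cdkn1c (-0.68 ± 0.18) were lower. The Cdkn1c call ended without R377H replicate 2 or without R448Q replicate 1 (adjusted p of 0.0761 and 0.0717). Nap1l4 was called higher (0.16 ± 0.06), but not on TPM (adjusted p = 0.248) nor without R377H replicate 1, R377H replicate 2 or R448Q replicate 1 (0.135, 0.101 and 0.276). Kcnq1 and Tssc4 were not called, with intervals (95%) of the difference from -0.74 to 1.09 and from -0.2 to 0.16.

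Against WT IAA, cells without any induced transgene, 7 genes were lower in R377H, where 37% of all genes were called (16.5% lower, 20.5% higher). In R448Q 8 were lower and 1 higher, where 46.8% were called (23.2% lower, 23.6% higher). Higher calls made up 55.4% of all calls in R377H and 50.4% in R448Q on normalized counts, and 38.7% and 31.1% on TPM, which moved the median of all genes by -0.11 and -0.18. Phlda2 differed most in both, by -2.67 ± 0.22 in R377H and -4.24 ± 0.22 in R448Q. Ascl2 was not called lower in R377H than in WT IAA (-0.33 ± 0.34, limma adjusted p = 0.483), and WT IAA was at 3.83 and 1.98 TPM, around the R377H libraries. In R448Q it was called lower (-1.73 ± 0.34). The Tssc4 calls in these 2 comparisons (-0.24 and -0.26) were small. In R377H that call ended whichever of the 4 libraries was left out (adjusted p of 0.0739 to 0.167), and in R448Q without WT IAA replicate 2 or R448Q replicate 1 (0.104 and 0.108).

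R377C and R377H, which replace the same arginine, differed from each other in 7 of the 10 genes, all higher in R377C than in R377H, against 19% of all genes called (7.88% higher, 11.1% lower). Cdkn1c was at 11.9 and 11.7 TPM in R377C and 3.81 and 4.79 TPM in R377H. Phlda2 was at 14.7 and 14.3 TPM in R377C and 4.39 and 6.53 TPM in R377H. Ascl2 was at 6.31 and 7.68 TPM in R377C and 2.01 and 2.07 TPM in R377H. None of these overlapped, and the log2 differences (R377C minus R377H) were 1.36 ± 0.18 for Cdkn1c (limma adjusted p = 1.87e-05), 1.32 ± 0.22 for Phlda2 and 1.65 ± 0.34 for Ascl2. Tspan32 (1.33 ± 0.21), Slc22a18 (0.99 ± 0.22) and Cd81 (0.58 ± 0.11) differed as well, and Kcnq1 was called on 33 reads in R377C and 2 in R377H. The Slc22a18 call ended without R377H replicate 2 (0.81, adjusted p = 0.057). Kcnq1ot1 did not differ beyond the spread, with a difference of -0.19 ± 0.26 (95% interval -0.73 to 0.36), and its R377C libraries were 6.73 and 4.34 TPM, on either side of R377H. Tssc4 (0.19) and Nap1l4 (0.02) were not called. Of all calls between R377C and R377H 41.5% were higher on normalized counts and 64.3% on TPM, which moved the median of all genes by 0.10.

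In 3 further lines fewer of the 10 genes fell. K365T had 5 falls, with 32% of all genes called (14.2% lower, 17.7% higher; 55.4% of the calls were higher on normalized counts and 42.7% on TPM). Tspan32 was at 1.92 and 3.0 TPM there (-1.08 ± 0.21, limma adjusted p = 6.23e-04) and Phlda2 at 9.44 and 16.7 TPM (-1.02 ± 0.22). Slc22a18 was at 5.77 and 7.88 TPM (-0.75 ± 0.22). All of these libraries lay below both WT ID libraries, but the 2 K365T replicates were apart, replicate 1 being the lower in all 3 genes. Without K365T replicate 1 the Slc22a18 call ended (-0.52, adjusted p = 0.129), as it did without WT ID replicate 2 (-0.62, adjusted p = 0.113). Cd81 (-0.36 ± 0.11) and Tssc4 (-0.26 ± 0.09) were called too, and neither was after chromosome medians were set equal (-0.25 and -0.16, adjusted p of 0.114 and 0.193). The Cd81 call also ended without WT ID replicate 1 or K365T replicate 1 (0.12 and 0.26), and the Tssc4 call whichever of the 4 libraries was left out (0.0569 to 0.152). Kcnq1ot1 was not called (-0.41 ± 0.26), although without replicate 1 it was lower (-0.98, adjusted p = 0.00339). Cdkn1c was at 8.59 and 12.3 TPM, on either side of WT ID.

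S354F and R377C each had 2 falls, Phlda2 and Tspan32, with 9.8% and 8.09% of all genes called. Lower calls made up 4.31% and 3.43% of all genes, and higher calls 5.49% and 4.67%. Phlda2 was at 15.2 and 15.0 TPM in S354F (-0.84 ± 0.22, limma adjusted p = 0.0216) and at 14.7 and 14.3 TPM in R377C (-0.9 ± 0.22, adjusted p = 0.016). Tspan32 was at 3.74 and 2.79 TPM in S354F (-0.75 ± 0.21) and at 3.44 and 2.71 TPM in R377C (-0.82 ± 0.21). All lay below both WT ID libraries. Cdkn1c went the other way in S354F, at 14.5 and 14.4 TPM, above both WT ID libraries. It was not called by limma (0.51 ± 0.18, adjusted p = 0.0786). DESeq2 called it (adjusted p = 0.0425), as did limma fitted on only S354F and WT ID (0.0427). The Phlda2 calls ended when any of the 4 libraries compared was left out (adjusted p of up to 0.151 in S354F and 0.133 in R377C). The Tspan32 calls ended without either WT ID library or without replicate 2 of the mutant (up to 0.277 and 0.192).

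R342C had a called rise of Cdkn1c, which was at 17 and 15.4 TPM, the highest of all groups (0.59 ± 0.18, limma adjusted p = 0.0228). Of all genes 23.3% were called there (10% higher, 13.3% lower). Cd81 was at 341 and 329 TPM (0.31 ± 0.11) and Nap1l4 at 102 and 99.3 TPM (-0.21 ± 0.06). Cdkn1c and Cd81 stood above both WT ID libraries and Nap1l4 below them. The Cdkn1c and Cd81 calls ended when any of the 4 libraries was left out (adjusted p of up to 0.154 and 0.239), and the Nap1l4 call ended on TPM (-0.11, adjusted p = 0.181) and without WT ID replicate 1, WT ID replicate 2 or R342C replicate 1 (0.058, 0.113 and 0.126). Of all calls 42.9% were higher on normalized counts and 70.2% on TPM in this comparison.

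R339Q and H455R had 0 of 10 members called by limma, where 21.5% and 23.1% of all genes were. In R339Q 11.8% of all genes were higher and 9.7% lower, and in H455R 12.6% and 10.5%. Q418R had the 1 call for Kcnq1ot1 described above, where 25% of all genes were called (11.2% higher, 13.8% lower). Of those calls 44.6% were higher on normalized counts and 26.3% on TPM, which moved the median of all genes by -0.09. On TPM the Kcnq1ot1 call in Q418R was lost and Tssc4 was called lower (-0.25, limma adjusted p = 0.0269). At an unadjusted p under 0.05 there were 0 of 10 in R339Q and 2 of 10 in H455R, Ascl2 and Nap1l4. edgeR and DESeq2 called 0 in R339Q and 1 in H455R, Ascl2 in each tool (adjusted p of 0.0455 and 0.0301). Fitted with limma on only R339Q and WT ID, Phlda2 (-0.36, adjusted p = 0.0383) and Tspan32 (-0.40, 0.0241) were called lower. The same kind of fit called Ascl2 lower in H455R (adjusted p = 0.0453), besides the Kcnq1ot1 call given above. Ascl2 in H455R was at 3.46 and 4.1 TPM, below both WT ID libraries (-0.85 ± 0.34, limma adjusted p = 0.0792).

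Between WT IAA and WT ID, cells without and with the induced wild-type transgene, 1 of 10 genes was called, lower in WT IAA, against 20.7% of all genes (10.7% lower, 9.96% higher). Ascl2 was at 3.83 and 1.98 TPM in WT IAA and 9.79 and 4.57 TPM in WT ID (-1.28 ± 0.34, limma adjusted p = 0.0114). The groups did not overlap, but the call ended without WT IAA replicate 2 (-0.82, adjusted p = 0.202) or without WT ID replicate 1 (-0.78, adjusted p = 0.206). Kcnq1ot1 was at 5.18 and 4.64 TPM in WT IAA, with a difference of 0.13 ± 0.26 (95% interval -0.41 to 0.68). Phlda2 was at 36.0 and 38.2 TPM (0.45 ± 0.22, adjusted p = 0.173) and Cdkn1c at 14.9 and 12.5 TPM (0.43 ± 0.18, adjusted p = 0.0991). Both libraries of each of these genes lay above WT ID without a call. Tspan32 was at 3.76 and 4.03 TPM (-0.48 ± 0.21, adjusted p = 0.12) and Slc22a18 at 8.64 and 10.8 TPM (-0.32 ± 0.22, adjusted p = 0.328), both below WT ID without a call. Fitted on only these 2 groups, Phlda2, Cdkn1c and Tspan32 were called (adjusted p of 0.0149, 0.0397 and 0.016).

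Untreated cells were deposited in tables of their own, so the main comparison was on TPM and without a test, with edgeR on recovered reads of all 24 libraries as an alternative. A gene was counted where mean TPM differed at least 2-fold with no overlap of the libraries. Against WT ID 1 of 10 was counted, against 12.2% of all genes (10.2% lower and 2.01% higher). That gene was Tspan32, at 1.25 and 1.76 TPM in untreated cells (log2 ratio -1.77). Phlda2 was highest of all groups in untreated cells, 52.5 and 49.4 TPM, a log2 ratio of 0.92, just inside 2-fold. Kcnq1ot1 was at 3.53 and 3.31 TPM (-0.37) and Cdkn1c at 7.14 and 7.38 TPM (-0.46), both below the WT ID pair. Against WT IAA, 2 were counted, against 16.7% of all genes (3.33% higher, 13.4% lower). These were Ascl2, higher in untreated cells at 11 and 7.22 TPM (1.61), and Tspan32, lower (-1.31). edgeR called 4 of 10 members against WT ID, where 40.4% of all genes were called: Phlda2 (1.09, adjusted p = 1.06e-04), Nap1l4 (0.30) and Cd81 (0.28) higher and Tspan32 (-1.65) lower. Against WT IAA it called 7 of 10, where 45.5% of all genes were called. Ascl2 (1.78), Phlda2 (0.63), Cd81 (0.42), Nap1l4 (0.28) and Tssc4 (0.27) were higher in untreated cells, and Tspan32 (-1.17) and Cdkn1c (-0.74) lower. On the TPM scale untreated cells had the most Phlda2 and, K365T apart, the least Kcnq1ot1. edgeR called Kcnq1ot1 neither against WT ID (-0.21, adjusted p = 0.549) nor against WT IAA (-0.35, 0.277).

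**Figure D3:**
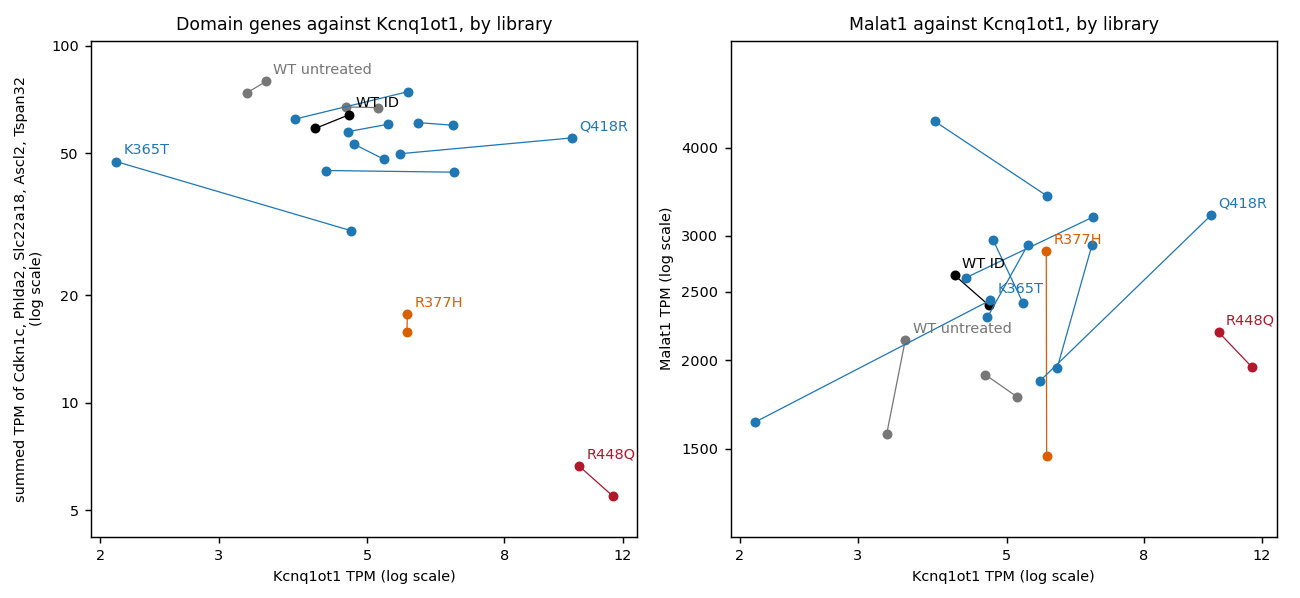
Each library by its Kcnq1ot1 level (horizontal axes, TPM, log scale) and by the summed TPM of Cdkn1c, Phlda2, Slc22a18, Ascl2 and Tspan32 (left, log scale) or by Malat1 (right, TPM, log scale); lines join the 2 libraries of a group. On the left R448Q stands alone at 5.49 and 6.64 summed TPM. R377H, at 15.8 and 17.7, has Kcnq1ot1 at 5.73 TPM in both libraries. Q418R replicate 1 has Kcnq1ot1 at 10.1 TPM with a sum of 55.3, and its replicate 2 has 5.6 TPM with 49.9.

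Set side by side by library, high Kcnq1ot1 and low neighbours did not always go together. The summed level of Cdkn1c, Phlda2, Slc22a18, Ascl2 and Tspan32 was 64.2 and 58.8 TPM in WT ID, 5.49 and 6.64 TPM in R448Q and 15.8 and 17.7 TPM in R377H. In Q418R replicate 1, where Kcnq1ot1 reached 10.1 TPM, the sum was 55.3 TPM. In R377H, where the sum was low, Kcnq1ot1 was at 5.73 TPM, between the 2 R377C libraries, whose sums were 44.3 and 44.8 TPM. Within groups, the number of 7 genes (Kcnq1, Cdkn1c, Phlda2, Slc22a18, Ascl2, Tspan32 and Cd81) that were lower in the replicate with more Kcnq1ot1 was 7 of 7 in K365T, 6 in S354F, 1 in R342C and 3 to 5 in the other groups. Over the means of the 11 groups fitted together, the correlation of Kcnq1ot1 with Cdkn1c was -0.71 and without R448Q -0.28, with Phlda2 -0.60 and 0.04. These are descriptions of 11 points that share one scaling, with no p.

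Other nuclear long noncoding RNAs moved with Kcnq1ot1 between some replicates. Malat1, Neat1 and Tsix were picked for this after their values were seen. In Q418R the ratio of replicate 1 to replicate 2 was 1.80 for Kcnq1ot1, 1.72 for Malat1, 2.33 for Neat1 and 2.27 for Tsix. In K365T it was 2.24, 1.49, 2.43 and 2.57. In R377C that ratio was 1.55 for Kcnq1ot1 against 1.22, 1.06 and 1.40, and in WT untreated 1.07 against 1.36, 1.33 and 1.78. With replicate 2 over replicate 1, R339Q had 1.15 against 1.26, 1.17 and 1.23, and H455R had 1.13 against 1.49, 1.66 and 1.45. The remaining groups did not follow this. In R377H the ratio of replicate 2 to replicate 1 was 1.00 for Kcnq1ot1 and 0.51, 0.47 and 0.55 for the other 3. In S354F that ratio was 1.11 against 0.81, 0.52 and 0.96. In R342C the ratio of replicate 1 to replicate 2 was 1.47 against 0.78, 1.27 and 0.99. As for levels in R448Q, Malat1 was at 1956 and 2193 TPM against 2395 and 2639 in WT ID, and Neat1 at 25.7 and 27.3 TPM against 55.5 and 58.3. Tsix went the other way there, at 12.3 and 14.4 TPM in R448Q against 10.4 and 12.3 in WT ID, with R448Q the higher by a narrow margin. The 3 RNAs thus did not move together in R448Q, and their part in the result was not tested.

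Beyond the members, 19 flanking genes were listed and 11 passed the filter. In R448Q 6 of the 11 were lower and 0 higher, against 45.8% of all genes called (23.1% lower, 22.8% higher). In R377H 2 were lower and 0 higher, against 25.1% (10.7% lower, 14.4% higher). Th, tyrosine hydroxylase and the gene just outside Ascl2, had the largest fall in both. It was at 0.867 and 0.676 TPM in WT ID, 0 and 0.065 TPM in R377H, and 0 and 0.157 TPM in R448Q. These are 58, 2 and 6 reads, and the scaled ratios to WT ID were 0.0461 in R377H (95% exact interval 0.00545 to 0.174) and 0.118 in R448Q (0.0416 to 0.273). In R377C it was at 0.749 and 0.324 TPM. Lsp1 and Mrpl23, farther out on that side, were not called in R448Q (-0.95 and 0.38).

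On the other side, next to Nap1l4, the pattern differed. Cars, a transfer RNA synthetase, was at 114 and 105 TPM in WT ID, 98.4 and 98.3 TPM in R377H (-0.06 ± 0.08, not called) and 74.6 and 72.8 TPM in R448Q (-0.4 ± 0.08). Cars was lower in WT IAA as well, at 66.2 and 62.4 TPM (-0.78 ± 0.08, limma adjusted p = 3.04e-06). The decoy receptor genes Tnfrsf22 (-0.08 and -0.22) and Tnfrsf23 (0.09 and -0.02) were not called in R377H or R448Q. Osbpl5, an oxysterol-binding protein gene that is imprinted in placenta, was at 2.04 and 1.49 TPM in WT ID, 2.11 and 2.13 TPM in R377H and 0.549 and 0.528 TPM in R448Q (-1.51 ± 0.20). Mrgpre, Nadsyn1 and Dhcr7, named after their values were seen, were lower in R448Q too (-2.64, -1.0 and -1.0), and of these only Dhcr7 was called in R377H (-0.37). The region from base 140000000 to the end of chromosome 7 held 84 tested genes besides the members and the listed flanking genes. In R448Q the median of these 84 was -0.24 and that of the whole chromosome -0.18. In R377H these were 0.06 and -0.06. The falls of Tspan32, Phlda2, Slc22a18, Ascl2, Cdkn1c, Cd81 and Kcnq1 in both lines kept their calls after chromosome medians were set equal.

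**Figure D4:**
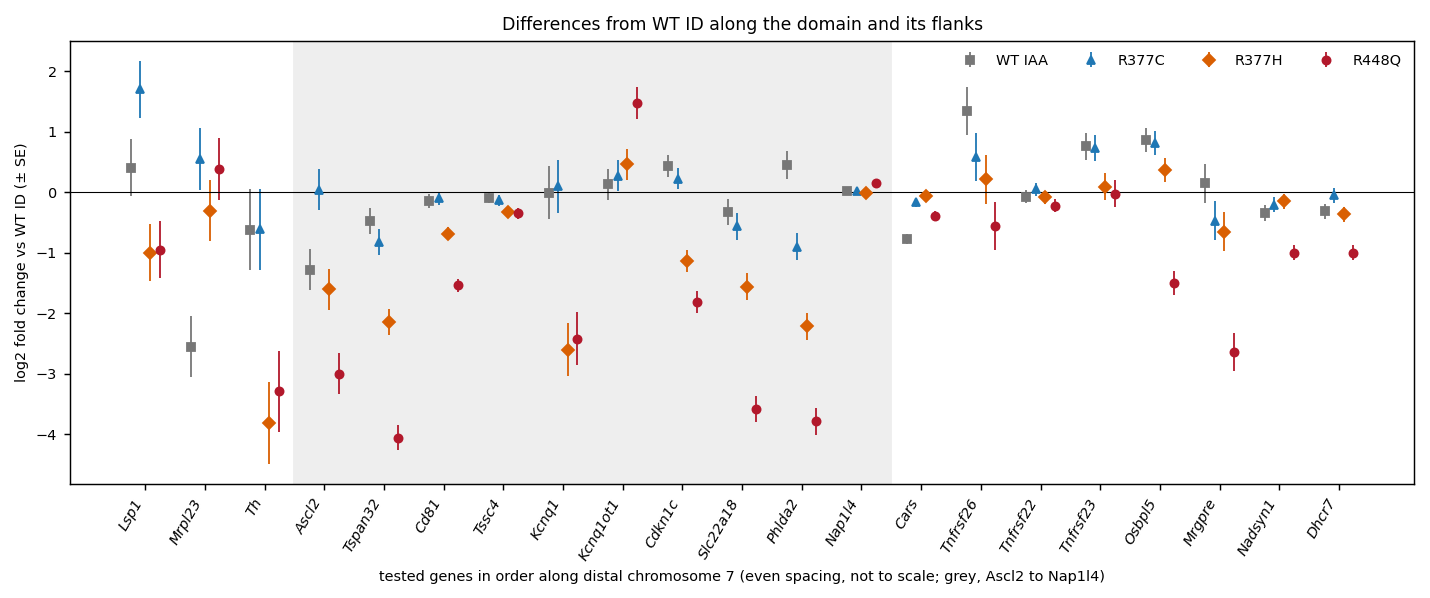
log2 fold change against WT ID ± SE (vertical axis) of the tested genes in order along distal chromosome 7 (horizontal axis, even spacing, not to scale; grey marks Ascl2 to Nap1l4) in WT IAA, R377C, R377H and R448Q. R377H and R448Q fall together from Th to Phlda2 with Tssc4 near 0 and Kcnq1ot1 above it, both are near 0 at Nap1l4, and from Osbpl5 on R448Q lies below R377H at Osbpl5, Mrgpre, Nadsyn1 and Dhcr7.

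Regulators with a known part in imprinting at such domains were counted as a list of 18: Hnrnpk, Polycomb genes (Rnf2, Ring1, Ezh2, Eed, Suz12), the histone methyltransferases Ehmt1 and Ehmt2, Dnmt1, Uhrf1, Zfp57, Trim28, Zfp445, Dppa3, Yy1 and the NF-Y subunits Nfya, Nfyb and Nfyc. All 18 were tested. In R377H 3 were higher and 0 lower, with a list median of 0.07, against 14.4% of all genes higher and 10.7% lower. In R448Q 6 were higher and 0 lower, with a median of 0.04, against 22.8% and 23.1% of all genes. In both lines the share of the list called was below the 25.1% and 45.8% of all genes called. Dppa3, a maternal factor known to protect DNA from demethylation in the zygote, had the largest increase in both (2.67 ± 0.30 and 1.34 ± 0.30). It was higher in WT IAA too (1.45 ± 0.30, limma adjusted p = 0.002). On normalized counts the RNA of 0 of the 18 regulators was called lower in either line. After chromosome medians were set equal, Suz12 was lower in R448Q (-0.22, adjusted p = 0.0198). In R377C 0 of the 18 were called.

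Marker lists of other cell types were low beside those of stem cells in every library. Summed TPM of 10 pluripotency genes was 8934 to 11602, with 0 of 10 under 1 TPM in any group mean. The sum does not show changes of single genes. In R448Q 6 of the 10 were called higher and 3 lower, against 22.8% and 23.1% of all genes. In R377H 3 were higher and 0 lower, against 14.4% and 10.7%. The 10 trophectoderm genes summed to 139 to 309 TPM with 1 to 5 of 10 under 1 TPM, and Elf5 was at or near 0 throughout. The 10 primitive endoderm genes summed to 74.7 to 182 TPM (3 to 6 of 10 under 1 TPM) and the 10 fibroblast genes to 13 to 40.6 TPM (7 to 9). Because Ascl2 and Phlda2 are also placental genes, the trophectoderm list is given in more detail. Its sum was 239 and 209 TPM in WT ID, 185 and 183 TPM in R377H and 139 and 142 TPM in R448Q. Its largest fall was Cdx2 in R377H (-2.5 ± 0.31) and Krt18 in R448Q (-1.44 ± 0.17), while Cdx2 rose in R448Q (1.96 ± 0.31), and 4 of its 9 tested genes fell in each line, against 10.7% of all genes lower in R377H and 23.1% in R448Q. In R377H 2 of the 9 rose and in R448Q 1 did. These markers thus moved with the domain genes in part, and their part in the result was not tested.

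Group means were correlated over 11 groups and 12524 genes whose mean reached 50. Symbols that are model or clone names (Gm, AC, AL, CT or BC with a number, or Rik) were left out. The genes most like Kcnq1ot1 were Zzz3 (Pearson r = 0.92), Glyr1 (0.91), Ttc28 (0.90), Zfp704 (0.90) and Erich3 (0.90). Zzz3, Zfp704 and Erich3 lie on chromosome 3. For Cdkn1c they were Mab21l3 (0.96), Hspb2 (0.95), Ccdc71 (0.94), Lamb2 (0.94) and Pard6g (0.94). Next among the 12524 came its neighbour Slc22a18, at rank 6 (0.93), with Cd81 at 8, Tspan32 at 14 and Phlda2 at 20. Tssc4 was at rank 1435 (0.60), and Nap1l4 ran the other way (-0.53). Without R448Q the correlation of Cdkn1c with Slc22a18 was 0.82 and with Phlda2 0.71. These correlations rest on points that share one scaling, and 2 of them, R448Q and R377H, stand far from the rest.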

How the data were processed

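RNA-seq was analysed from tables in which the authors deposited normalized counts, a signal of reads divided by a size factor per library, and TPM. Trim Galore, STAR, DESeq2 and the mm10 build are named in the submitters' processing notes. Which counter, annotation and strand setting were used is unstated in those notes and in the labels. Untreated cells were deposited in separate tables with their own scaling.

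Log2(normalized count + 1) values of 18713 genes with a mean of at least 10 were fitted with limma 3.58.1 (R 4.3.3, trend) over 22 libraries and 11 groups at once. Tests were two-sided and Benjamini-Hochberg adjusted within each of 14 comparisons. Untreated cells were compared by log2 ratios of mean TPM + 0.1. Whole reads were recovered by dividing by each library's step per read, within 0.1 read, and were used for edgeR 4.0.16 and DESeq2 1.42.0 as alternatives. For R448Q replicate 1 and WT ID replicate 2 the step is close to 1, and an independent check of the recovery did not pass, so those alternatives rest partly on less certain reads. The limma values do not use them.

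Other alternatives were other pseudocounts, filters, scalings and sample sets, a replicate block and leaving out each library. Same-numbered libraries were checked for pairing. Correlations over 55 group pairs ran from -0.248 to 0.382 with a median of 0.023, and 10 pairs were over 0.1. The numbers were not used as pairs in the main fit, and the check cannot settle pairing among a few groups. The limma procedure was tested on simulated data, with 50 changed genes at each fold. It recovered 42% of 1.5-fold, 74% of 2-fold, 84% of 3-fold and 92% of 4-fold changes, with 6 false among 152 calls. A gene that was not called may therefore still differ by such amounts. The counts were drawn independently for each gene and library, so effects shared by the genes of 1 library were not simulated. Genes were changed in the R448Q group alone, and far fewer were changed than were called in the real comparisons. The adjusted p depends on that share, so recovery in the real comparisons may differ.

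All 10 genes are named. Of the other lists, the called genes with the largest increase and decrease are named, all flanking genes between Ascl2 and Osbpl5 may be, and for Kcnq1ot1 and Cdkn1c the 5 genes most correlated over group means. The genes and lists were chosen with earlier results of these data known.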

Additional observations from a re-analysis of the deposited data

Results flagged for a closer look

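R377C and R377H gave different values against the same WT ID libraries in 7 of the 10 genes, and the limma test of R377C against R377H passed the threshold for each. The log2 difference, R377C minus R377H, was 1.65 for Ascl2, 0.58 for Cd81, 1.36 for Cdkn1c, 2.7 for Kcnq1, 1.32 for Phlda2, 0.99 for Slc22a18 and 1.33 for Tspan32. The Kcnq1 value rests on few reads and depends on the added count of 1. Of all genes 19% were called in this comparison, and 7.88% of all genes were higher in R377C. Each substitution is 1 line, so the substitution and the line cannot be told apart.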

How the results depend on the processing

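Of 2083 member values under an alternative, 1452 with a changed setting and 459 without 1 library kept their direction and side of the threshold. Of the rest, 26 and 55 lost the threshold, 20 and 4 gained it, and 25 and 42 changed sign. Where 1 library is left out, the lone sample is assumed to vary like the other groups. The cause of these changes was not tested. The fit with a replicate block ended the calls of Cd81 in R342C (adjusted p = 0.0517) and Nap1l4 in R448Q (0.0544) and changed no other call of a member. Few reads limit Kcnq1 and Th. Comparisons are with WT ID unless another group is named.

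The number of members called or counted moved as follows. Fitted on only the 2 groups the count was 4 in WT IAA, 2 in R339Q, 3 in K365T, 2 in Q418R and 2 in H455R. With quantile normalization the count was 1 in R342C. With no low-value filter the count was 1 in S354F and 0 in Q418R. On TPM the count was 1 in S354F and 1 in R377C. With edgeR the count called was 1 in H455R, and the count called and at least 2-fold apart was 2 in WT untreated. With DESeq2 the count was 1 in H455R. With edgeR and a replicate block the latter count was 2 in WT untreated. With a pseudocount of 1 on TPM the count was 1 in WT untreated against WT IAA. Without 1 library it was 0 to 1 in WT IAA, 0 to 2 in R342C, 0 to 1 in S354F, 3 to 4 in K365T, 0 to 1 in R377C, 0 to 1 in Q418R and 0 to 1 in H455R. Among all genes, leaving out 1 library gave 1804 to 2537 against 3868 in WT IAA, 1890 to 2833 against 4018 in R339Q, 2003 to 4189 against 4365 in R342C, 863 to 1056 against 1834 in S354F, 582 to 905 against 1514 in R377C, 3016 to 3509 against 4696 in R377H, 2872 to 3706 against 4677 in Q418R, 2564 to 3011 against 4322 in H455R and 1856 to 2655 against 3552 in R377C against R377H calls, with fewer samples in each fit; in R342C the fit on only the 2 groups gave 2639.

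On TPM the sign turned for Kcnq1 in WT IAA (0.0052), Kcnq1ot1 in R342C (0.093), Cdkn1c in Q418R (-0.032), Nap1l4 in R448Q (-0.015) and Nap1l4 in R448Q against WT IAA (-0.045). With quantile normalization the sign turned for Ascl2 in R339Q (-0.088), Kcnq1ot1 in R342C (0.11), Kcnq1 in R377C (-0.12), Ascl2 in R377C (-0.071), Phlda2 in Q418R (0.0094), Slc22a18 in H455R (-0.043) and Tssc4 in R448Q against R377H (0.057). With edgeR the sign turned for Kcnq1 in WT IAA (0.0053), Ascl2 in R339Q (-0.073), Kcnq1ot1 in R342C (0.042) and Ascl2 in R377C (-0.043). With DESeq2 the sign turned for Ascl2 in R339Q (-0.070), Kcnq1ot1 in R342C (0.020) and Ascl2 in R377C (-0.038). With chromosome medians set equal the sign turned for Kcnq1ot1 in R342C (0.012), Ascl2 in K365T (0.025), Nap1l4 in R377H (0.041), Nap1l4 in R377C against R377H (-0.0035), Tssc4 in R448Q against R377H (0.10) and Nap1l4 in R377H against WT IAA (0.022). When 1 library was left out in turn, these values took both signs. Kcnq1 ran from -0.12 to 0.11 in WT IAA, -0.020 to 0.21 in R377C, -0.13 to 0.54 in Q418R and -0.15 to 0.50 in R448Q against R377H. Nap1l4 ran from -0.031 to 0.062 in WT IAA, -0.022 to 0.037 in R339Q, -0.0032 to 0.030 in R377C, -0.026 to 0.0071 in R377H and -0.071 to 0.022 in R377H against WT IAA. Ascl2 ran from -0.49 to 0.50 in R339Q, -0.30 to 0.69 in R342C, -0.67 to 0.32 in S354F, -0.58 to 0.41 in K365T, -0.45 to 0.54 in R377C, -0.62 to 0.37 in Q418R and -0.78 to 0.13 in R377H against WT IAA. Cd81 ran from -0.015 to 0.24 in R339Q. Tssc4 ran from -0.013 to 0.15 in R339Q and -0.050 to 0.0092 in R448Q against R377H. Kcnq1ot1 ran from -0.22 to 0.21 in R342C, -0.98 to 0.16 in K365T, -0.024 to 0.57 in R377C and -0.48 to 0.11 in R377C against R377H. Slc22a18 ran from -0.39 to 0.27 in S354F and -0.11 to 0.16 in H455R. Cdkn1c ran from -0.15 to 0.38 in K365T and -0.017 to 0.14 in Q418R. Phlda2 ran from -0.18 to 0.11 in Q418R and -0.15 to 0.026 in H455R. Tspan32 ran from -0.14 to 0.025 in H455R.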
